A study of Mus musculus with 22 samples.

Results

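The Cyp4 genes followed here in mouse liver were Cyp4a10, Cyp4a12a, Cyp4a12b, Cyp4a14, Cyp4a31, Cyp4a32, Cyp4f13, Cyp4f14, Cyp4f15 and Cyp4v3. They were chosen by their symbols, as cytochrome P450 genes of family 4 that encode fatty acid omega-hydroxylases or their close relatives. All 10 were found among the 15448 genes of the count table, and all 10 passed the filter on low counts. Each of 22 polyA RNA libraries came from the liver of 1 male wild-type CD2F1 mouse. The sham-injected controls (CT, n = 6) had no tumour and are labelled as given vehicle. The second group (C26, n = 8) carried transplanted cells of C26, a mouse colon carcinoma line used as a model of cancer cachexia. The third group (C26-TDCA, n = 8) carried the same tumour and was injected intraperitoneally with taurodeoxycholic acid (TDCA), a taurine-conjugated secondary bile acid, at 10 mg/kg each day. The labels name no vehicle for the C26 group, so TDCA and the daily injection cannot be told apart in the comparison of C26-TDCA with C26. The sources used here do not give ages.

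CYP4 enzymes sit in the membrane of the endoplasmic reticulum and place a hydroxyl group on the last carbon of a fatty acid, the omega end. Alcohol and aldehyde dehydrogenases turn that end into a second acid group, and peroxisomes shorten the resulting dicarboxylic acid by beta-oxidation. In liver the Cyp4a genes are textbook targets of PPARα, the nuclear receptor that senses fatty acids. Some family members also hydroxylate signalling lipids, such as arachidonic acid to 20-HETE or leukotriene B4 to a less active form.

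All members share the loop in which a cysteine binds the haem iron, and its coding sequence shows how the genes group. It is given as the 30 coding bases of GENCODE M21 on the GRCm38 build, 5′ to 3′, with the codon of the haem-binding cysteine in capitals. The loop is identical in Cyp4a10, Cyp4a31 and Cyp4a32, and identical in Cyp4a12a and Cyp4a12b.
Cyp4a10, Cyp4a31 and Cyp4a32: ttctcaggaggagccaggaacTGCattggg
Cyp4a12a and Cyp4a12b: ttctcaggaggagcaaggaacTGCattggg
Cyp4a14: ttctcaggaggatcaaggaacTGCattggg
Cyp4f13: ttctcagcggggaccaggaacTGCatagga
Cyp4f14: ttctcggcgggacccaggaacTGCatagga
Cyp4f15: ttctccgctgggcccaggaacTGCatagga
Cyp4v3: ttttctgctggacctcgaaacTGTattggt
The 6 Cyp4a genes lie in a cluster of 323 kb at chr4:115299046-115621602, the 3 Cyp4f genes within 262 kb at chr17:32685627-32947402, and Cyp4v3 alone on the minus strand at chr8:45304944-45333216 (GRCm38). An exon of Cyp4v3 is overlapped on the same strand by the annotated gene Gm45753. All 10 are annotated as protein coding.

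Some members are near-identical copies, which bears on every value below. The coding sequences of Cyp4a12a and Cyp4a12b were 98.5% identical and differed at 23 of 1524 bases. Cyp4a10 was 97.2% identical to Cyp4a32 and 96.6% identical to Cyp4a31, whereas Cyp4a14 was 76.2% identical to Cyp4a10. The stretch of coding bases 661 to 750 holds 7 of the 23 differences between the Cyp4a12 copies, shown in capitals.
Cyp4a12a: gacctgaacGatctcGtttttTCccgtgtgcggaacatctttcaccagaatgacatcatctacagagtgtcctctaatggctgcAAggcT
Cyp4a12b: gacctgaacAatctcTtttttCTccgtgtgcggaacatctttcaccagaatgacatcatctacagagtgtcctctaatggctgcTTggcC
Coding bases 190 to 279 of the other 3 copies hold 13 of the 77 positions at which they differ, again in capitals.
Cyp4a10: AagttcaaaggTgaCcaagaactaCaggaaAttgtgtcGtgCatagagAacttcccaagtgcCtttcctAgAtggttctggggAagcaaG
Cyp4a31: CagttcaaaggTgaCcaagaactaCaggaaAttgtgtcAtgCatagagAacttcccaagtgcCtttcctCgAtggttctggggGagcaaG
Cyp4a32: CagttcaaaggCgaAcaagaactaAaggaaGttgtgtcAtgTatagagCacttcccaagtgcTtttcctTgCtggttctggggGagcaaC
Of all windows of 100 bases in the transcript, 35.8% in Cyp4a12a, 36.2% in Cyp4a12b, 20.1% in Cyp4a32, 12.7% in Cyp4a10 and 8.22% in Cyp4a31 also occur in another gene. For Cyp4v3 the share was 5.77%, all with Gm45753, and for Cyp4a14, Cyp4f13, Cyp4f14 and Cyp4f15 it was 0. The shares depend on the window, and the read length is not given here. With 50 bases they were 48.9% in Cyp4a12a, 49.4% in Cyp4a12b, 46.8% in Cyp4a32, 30.5% in Cyp4a10 and 21.8% in Cyp4a31. For Cyp4v3 the share was then 7.02%, for the Cyp4f genes 2.45% to 2.72% and for Cyp4a14 0.245%. No source used here says how the authors counted reads matching several genes. Values of Cyp4a12a, Cyp4a12b, Cyp4a32, Cyp4a10 and Cyp4a31 are therefore uncertain where the copies share sequence.

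Depth per library was 16.5 to 25.3 M counts for CT mice, 17.5 to 28.1 M for C26 mice and 20.5 to 28.3 M for C26-TDCA mice. Levels are TMM-normalised counts per M counts (CPM), and 3 counts were 0.10 to 0.18 CPM. All 8 hepatocyte markers were measured, led by albumin (Alb) at 42189 ± 2760 CPM in CT (SD, n = 6) and 15181 ± 2840 in C26 (SD, n = 8). The 8 did not all move in the same direction, as given below. The 20 most abundant genes took 21.6% to 21.9% of counts in CT libraries and 33.1% to 39.9% in C26 libraries. Mitochondrially encoded genes took 5.59% to 6.18% in CT, 2.92% to 4.15% in C26 and 3.21% to 3.89% in C26-TDCA. Both shares differed between CT and C26 without overlap, and their part in the results was not tested. Nothing in the labels ties libraries to batches.

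In control liver the family was dominated by a few genes. Per kilobase of annotated exon, the 10 genes together reached 597 ± 21.9 CPM/kb in CT (SD, n = 6), and Cyp4a12a made up 33.7% ± 1.5 of that sum. Cyp4f14 followed at 20.6% ± 1.64 and Cyp4v3 at 20.2% ± 1.94, a pair whose shares differed by less than their spread. Cyp4a32 held 10.6% ± 1.43 and Cyp4f15 8.74% ± 0.833. By annotated exon length, Cyp4f13 at 2.59% ± 0.211 and Cyp4a12b at 2.30% ± 0.546 were again within their spread. The remaining 3 were minor: Cyp4a10 held 0.958% ± 0.361, Cyp4a31 0.187% ± 0.0465 and Cyp4a14 0.130% ± 0.104, and the shares of the last 2 overlapped. The annotated Cyp4a32 coding transcript has 1530 bases and no untranslated exon beyond its stop codon, so its level per kilobase rests on coding length. Cyp4f13 has 4441 exon bases over 14 transcripts, while its longest coding transcript has 1752. Its share, and its likeness to that of Cyp4a12b, therefore depend on the length taken, and the shorter length would give a higher share.

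With the tumour, most of the family fell. The summed level was 597 ± 21.9 CPM/kb in CT (SD, n = 6) and 215 ± 59.3 CPM/kb in C26 (SD, n = 8), where no library exceeded 323 CPM/kb. By edgeR's quasi-likelihood test, adjusted over all 14785 genes tested, 8 of the 10 genes were lower in C26 than in CT, 1 (Cyp4a14) was higher and 1 (Cyp4a31) did not pass an adjusted p of 0.05. Of all genes tested, 58.1% were called, 29.2% lower and 28.9% higher. For 7 members every C26 library lay below every CT library, which held for 15.3% of all genes, and no member was separated upwards (14.2% of all genes). The median log2 fold change was -1.11 over the members and -0.00 over all genes. In bulk tissue, fewer cells of a type and less RNA per cell cannot be told apart.

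Markers of other liver cells moved with the tumour. Beside the counts that follow, 28.9% of all genes tested were called higher in C26 against CT and 29.2% lower. All 8 Kupffer cell markers rose, and their sum went from 220 to 257 CPM in CT to 354 to 536 in C26. Of 7 measured neutrophil and monocyte markers 6 rose (sum 2.41 to 6.35 CPM in CT, 19.2 to 49.6 in C26), with Ly6g and Mpo not in the table. For sinusoidal endothelium 6 of 7 rose (194 to 236 against 256 to 469 CPM), and for stellate cells 6 of 7 rose and 1 fell (195 to 263 against 290 to 466 CPM). Of 5 measured bile duct markers 2 rose, Spp1 and Sox9, and 3 were not called (sum 19.3 to 32.6 against 239 to 763 CPM). Most of that sum was Spp1, at 18.8 ± 3.56 CPM in CT (SD, n = 6) and 411 ± 172 in C26 (SD, n = 8). The median log2 fold change of the 5 was 0.08. Among 4 lymphocyte markers 1 fell (sum 1.83 to 3.64 against 0.861 to 2.19 CPM). Of the 8 hepatocyte markers 3 fell, 2 rose and 3 were not called (sum 60013 to 68985 against 29492 to 38115 CPM). Alb, which made up most of that sum in CT, fell by 1.47 on the log2 scale. Tat, in contrast, rose by 1.34, with overlapping groups. Of 5 kidney tubule markers, a tissue that also makes Cyp4a enzymes, 4 were not in the table and Lrp2 had 0 to 23 counts per library. The part of these markers in the Cyp4 changes was not tested.

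**Figure D1:**
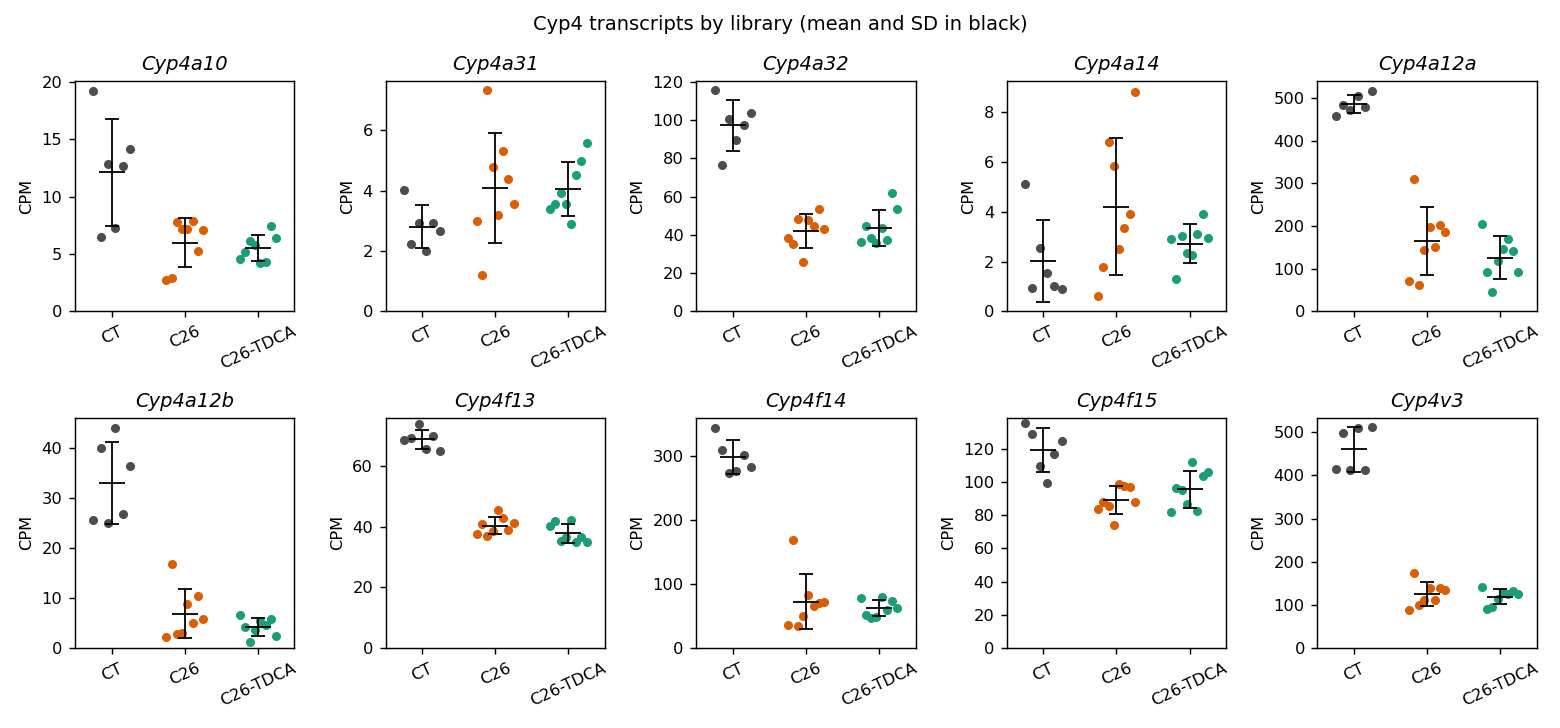
Level of each Cyp4 gene in CPM (linear axis from 0) in each of 22 libraries, by group, with the mean and SD in black. For Cyp4a12a, Cyp4a12b, Cyp4a32, Cyp4f13, Cyp4f14, Cyp4f15 and Cyp4v3 all 8 C26 points lie below all 6 CT points. For Cyp4a10, Cyp4a14 and Cyp4a31 the CT and C26 points overlap.

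Cyp4a12a and Cyp4a12b, the male-predominant pair that makes 20-HETE from arachidonic acid, both fell. Cyp4a12a (ENSMUSG00000066071) ranged from 459 to 517 CPM in CT with a median of 483, from 60.7 to 310 in C26 with a median of 168, and from 44.3 to 206 in C26-TDCA with a median of 130. The CT libraries were tightly packed and stood above every tumour library. Its log2 fold change in C26 against CT was -1.56 (SE 0.29, edgeR adjusted p = 5.52e-05), about 2.94-fold lower. Cyp4a12b (ENSMUSG00000078597) ranged from 25.1 to 43.9 CPM in CT with a median of 31.6, from 2.27 to 16.7 in C26 with a median of 5.45, and from 1.23 to 6.61 in C26-TDCA with a median of 4.39. No tumour library reached the CT range. Counted apart from its copy, it showed the greatest fall of the 10 genes, -2.29 (SE 0.34, edgeR adjusted p = 3.34e-06). With the reads of Cyp4a12a and Cyp4a12b summed into 1 feature, the sum fell by 1.59 (edgeR adjusted p = 4.58e-05), less than Cyp4f14 or Cyp4v3.

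The 3 close copies Cyp4a10, Cyp4a31 and Cyp4a32 did not move alike. Cyp4a32 (ENSMUSG00000063929), the most abundant of the 3 in CT, ranged from 76.3 to 116 CPM in CT with a median of 99.0, from 25.6 to 53.4 in C26 with a median of 43.7, and from 35.5 to 61.6 in C26-TDCA with a median of 40.8. CT and C26 did not overlap, and the log2 fold change was -1.21 (SE 0.14, edgeR adjusted p = 6.47e-08). Cyp4a10 (ENSMUSG00000066072), a classical PPARα-induced gene, ranged from 6.48 to 19.2 CPM in CT with a median of 12.7, from 2.70 to 7.84 in C26 with a median of 7.11, and from 4.21 to 7.45 in C26-TDCA with a median of 5.46. Here 2 CT libraries, CT 02 at 6.48 and CT 06 at 7.29, lay within the C26 range, and the log2 fold change was -1.0 (SE 0.24, edgeR adjusted p = 0.000844). Cyp4a31 (ENSMUSG00000028712) was a minor transcript in every library. It ranged from 2.01 to 4.04 CPM in CT with a median of 2.81, from 1.19 to 7.33 in C26 with a median of 3.97, and from 2.89 to 5.58 in C26-TDCA with a median of 3.75. C26 spanned the whole CT range, and the log2 fold change of 0.56 (SE 0.25, edgeR adjusted p = 0.0608) did not pass. It passed without CT 01 (0.68, edgeR adjusted p = 0.0309), without C26 01 (0.61, edgeR adjusted p = 0.0446) or without C26 02 (0.69, edgeR adjusted p = 0.00589). With all libraries it also passed under upper-quartile scaling (adjusted p = 0.0376), with DESeq2 (adjusted p = 0.0448) and with the trend in length and GC removed (adjusted p = 0.0495). When reads of the 3 copies were summed into 1 feature, the sum, most of it Cyp4a32, fell by 1.11 on the log2 scale (edgeR adjusted p = 1.91e-07).

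Cyp4a14, a gene strongly induced in mouse liver by PPARα agonists and fasting, was low in all groups and the only member called higher by edgeR with TMM scaling. Cyp4a14 (ENSMUSG00000028715) ranged from 0.892 to 5.13 CPM in CT with a median of 1.28, from 0.617 to 8.83 in C26 with a median of 3.63, and from 1.29 to 3.91 in C26-TDCA with a median of 2.91. The lowest library of all was C26 01 and the highest was C26 08, so the C26 group enclosed the CT group. The log2 fold change was 1.08 (SE 0.44, edgeR adjusted p = 0.0377). The call was lost when CT 02, CT 06, CT 07, CT 08, C26 03, C26 04 or C26 08 was left out (edgeR adjusted p from 0.0655 to 0.103) and when only the CT and C26 libraries were fitted (edgeR adjusted p = 0.0676).

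Of the Cyp4f genes, Cyp4f14 fell furthest. Cyp4f14 (ENSMUSG00000024292), which hydroxylates leukotriene B4, ranged from 273 to 344 CPM in CT with a median of 292, from 33.7 to 168 in C26 with a median of 68.4, and from 47.5 to 79.2 in C26-TDCA with a median of 60.6. CT stood apart from both tumour groups, and 1 C26 library, C26 02, stood apart from the other C26 libraries, the next being at 82.4. The log2 fold change was -2.04 (SE 0.24, edgeR adjusted p = 1.13e-07), and -2.35 without C26 02. Cyp4f13 (ENSMUSG00000024055) had the smallest spread relative to its mean in C26, a coefficient of variation of 7.06%. It ranged from 65.0 to 73.9 CPM in CT with a median of 68.9, from 37.0 to 45.4 in C26 with a median of 39.9, and from 34.8 to 42.2 in C26-TDCA with a median of 36.5. The groups CT and C26 were clearly apart, with a log2 fold change of -0.77 (SE 0.06, edgeR adjusted p = 9.01e-11). Cyp4f15 (ENSMUSG00000073424) fell least. It ranged from 99.4 to 136 CPM in CT with a median of 121, from 74.0 to 98.9 in C26 with a median of 88.0, and from 82.1 to 112 in C26-TDCA with a median of 95.9. CT and C26 only just did not touch, at 99.4 and 98.9, and the log2 fold change was -0.42 (SE 0.08, edgeR adjusted p = 0.000152).

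Cyp4v3, the counterpart of the human gene CYP4V2 that is mutated in a crystalline retinal dystrophy, fell in every tumour-bearing mouse. Cyp4v3 (ENSMUSG00000079057) ranged from 412 to 512 CPM in CT with a median of 457, from 87.3 to 173 in C26 with a median of 124, and from 89.9 to 141 in C26-TDCA with a median of 125. All 16 tumour libraries were below all 6 CT libraries. The log2 fold change in C26 was -1.88 (SE 0.13, edgeR adjusted p = 5.81e-12), the smallest p among the 10 genes.

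**Figure D2:**
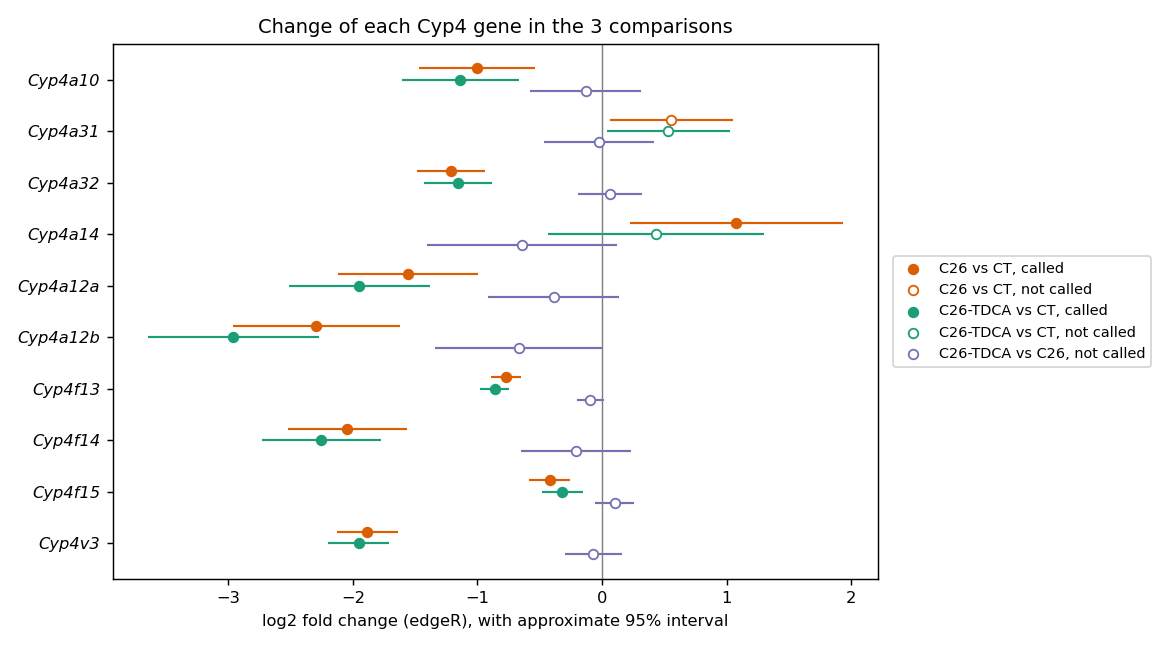
Log2 fold change (horizontal axis) of each Cyp4 gene from edgeR with its approximate 95% interval, for C26 against CT, C26-TDCA against CT and C26-TDCA against C26. Filled points passed an adjusted p of 0.05 and open points did not. The 3 comparisons share libraries. Cyp4a12b lies furthest left at -2.29 and -2.96 against CT, and no point of C26-TDCA against C26 is filled.

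The make-up of the family therefore differed between groups, as the ratio of 2 members within a library shows without any scaling between libraries. The ratios were compared by a two-sided exact permutation test over libraries, with p adjusted over 21 tests (7 pairs in 3 comparisons), and 5 of 7 pairs differed between C26 and CT. Cyp4f15 rose against Cyp4f14: the log2 ratio ranged from -1.48 to -1.18 in CT and from -0.94 to 1.35 in C26, a difference of 1.80 (adjusted exact p = 0.00300) with no overlap. Its share of the summed level per kilobase was 8.74% ± 0.833 in CT (SD, n = 6) and 19.1% ± 4.49 in C26 (SD, n = 8), whereas that of Cyp4f14 was 20.6% ± 1.64 and 13.1% ± 3.74. The Cyp4f13 to Cyp4f14 ratio was higher by 1.44 (adjusted exact p = 0.00466), with 1 C26 library at -2.05 inside the CT range of -2.33 to -1.89. The Cyp4a31 to Cyp4a10 ratio was higher by 1.44 (adjusted exact p = 0.00233), from -2.39 to -1.52 in CT to -1.27 to 0.16 in C26 without overlap. The Cyp4a14 to Cyp4a10 ratio was higher by 2.02 (adjusted exact p = 0.00350), and the groups overlapped. Cyp4a12b fell relative to its near-identical copy Cyp4a12a by 0.81 on the log2 scale (adjusted exact p = 0.00559), with overlap between the groups. The Cyp4a32 to Cyp4a10 ratio (-0.21, exact p = 0.489) and the Cyp4v3 to Cyp4f14 ratio (0.31, exact p = 0.161) did not pass. Without C26 02 the latter was 0.44 and passed (adjusted exact p = 0.0275).

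**Figure D3:**
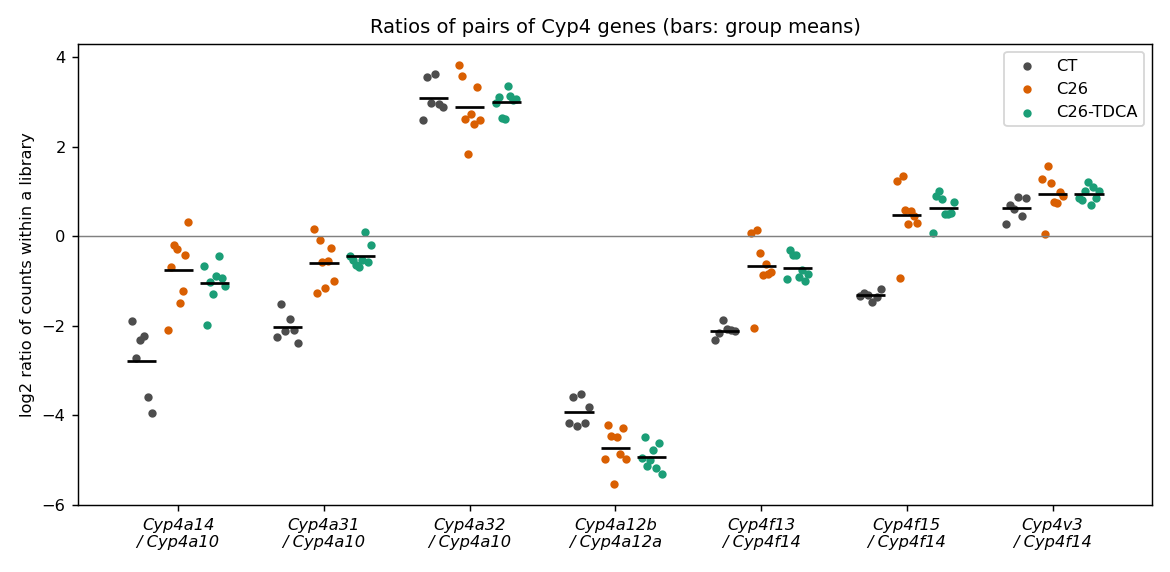
Log2 ratio of the counts of 2 Cyp4 genes within each library (vertical axis), by group, with a bar at the group mean. For Cyp4f15 over Cyp4f14 the 8 C26 points, from -0.94 to 1.35, all lie above the 6 CT points, from -1.48 to -1.18.

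Tumour-bearing mice differed among themselves more for some members than for others. In C26 the highest library was 14.3 times the lowest for Cyp4a14, 7.35 times for Cyp4a12b, 6.13 times for Cyp4a31, 5.11 times for Cyp4a12a and 4.99 times for Cyp4f14. In CT these quotients were 5.75, 1.75, 2.01, 1.13 and 1.26. Without library C26 02 they were 14.3, 4.54, 2.44, 3.33 and 2.44 in C26. For Cyp4f13 and Cyp4f15 the same quotient in C26 was 1.23 and 1.34. Library C26 02 was the highest C26 library for Cyp4a12a, Cyp4a12b, Cyp4f14 and Cyp4v3 and the lowest for Cyp4a31. It also had the fewest counts of the C26 group (17.5 M) and the smallest share in the 20 most abundant genes (33.1%), whose part in these levels was not tested. Without it the C26 means were 145 ± 58.1 CPM for Cyp4a12a, 5.44 ± 3.13 for Cyp4a12b, 58.7 ± 19.0 for Cyp4f14 and 118 ± 20.5 for Cyp4v3 (SD, n = 7). At the other end, C26 03 was the lowest C26 library for Cyp4a12a, Cyp4f13 and Cyp4f14 and the highest for Cyp4a31, and C26 01 was the lowest for Cyp4a10, Cyp4a12b, Cyp4a14 and Cyp4v3. Among controls, CT 01 was the highest library for 6 members, Cyp4a10, Cyp4a14, Cyp4a31, Cyp4a32, Cyp4f14 and Cyp4f15, and the lowest for Cyp4a12a.

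**Figure D4:**
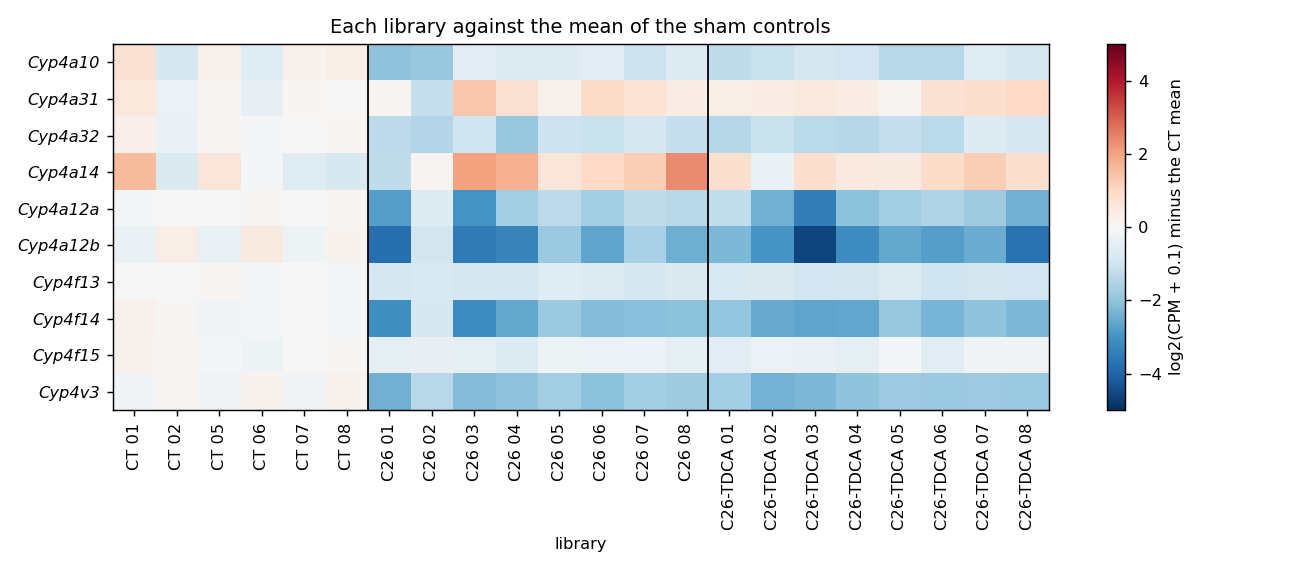
Log2(CPM + 0.1) of each Cyp4 gene in each library, minus the mean of that gene in CT (blue lower, red higher, colour scale from -5 to 5). Values run from -4.60, for Cyp4a12b in C26-TDCA 03, to 2.37, for Cyp4a14 in C26 08, and C26 02 is paler than its neighbours for Cyp4a12a, Cyp4a12b and Cyp4f14.

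No member differed detectably between C26-TDCA and C26 livers. Of the 10 genes 0 were called in C26-TDCA against C26 by edgeR, 0 had an unadjusted p under 0.05, and DESeq2 also called 0. Of all genes tested 1.97% were called, 0.237% lower and 1.73% higher, and 2335 had an unadjusted p under 0.05. The 2 groups overlapped for all 10 genes, and for all but 0.0541% (lower) and 0.0947% (higher) of all genes. The median log2 fold change was -0.11 over the members, 8 of them below 0, and -0.01 over all genes. The intervals show what these libraries could resolve. For Cyp4f13 the difference was -0.09 (95% interval -0.20 to 0.02), for Cyp4f15 0.10 (-0.05 to 0.25), for Cyp4v3 -0.07 (-0.30 to 0.16) and for Cyp4a32 0.06 (-0.20 to 0.32). These 4 intervals leave out a change of 1 log2 unit by a wide margin. They were wider for Cyp4f14 at -0.21 (-0.65 to 0.23), Cyp4a10 at -0.13 (-0.58 to 0.32) and Cyp4a31 at -0.02 (-0.47 to 0.42). The widest belonged to Cyp4a12a at -0.39 (-0.91 to 0.14), Cyp4a12b at -0.66 (-1.34 to 0.01) and Cyp4a14 at -0.64 (-1.41 to 0.12). For Cyp4a12b and Cyp4a14 the interval includes a halving. None of the 7 ratios between members passed, the smallest two-sided exact p being 0.291 for Cyp4a12b over Cyp4a12a.

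Against the sham controls, C26-TDCA livers gave the values that follow. They share the CT libraries with the comparison above and are not independent of it. In all 8 members were lower, 0 were higher and 2, Cyp4a14 and Cyp4a31, did not pass, where 57.0% of all genes were called, 28.2% lower and 28.7% higher. Groups were separate for 6 members, all lower (16.2% of all genes lower and 15.4% higher), and the median log2 fold change was -1.14 over the members and 0.01 over all genes. Cyp4a12b was lower by the most, -2.96 (SE 0.35, edgeR adjusted p = 1.09e-07; -1.99 for its reads summed with those of Cyp4a12a), followed by Cyp4f14 at -2.25, Cyp4v3 at -1.95, Cyp4a12a at -1.95, Cyp4a32 at -1.15, Cyp4a10 at -1.14 and Cyp4f13 at -0.86. Cyp4f15 was again lower by the least, -0.32 (SE 0.08, edgeR adjusted p = 0.00235), and its groups overlapped. Cyp4a14 was at 0.43 (SE 0.44, edgeR adjusted p = 0.418) and Cyp4a31 at 0.53 (SE 0.25, edgeR adjusted p = 0.0737), the latter passing without CT 01 (0.66, edgeR adjusted p = 0.0369), with only these 2 groups fitted (adjusted p = 0.0132) and with limma (adjusted p = 0.0420). Of the 7 ratios 6 passed, and the Cyp4a32 to Cyp4a10 ratio did not (-0.10, exact p = 0.575). The ratio of Cyp4v3 to Cyp4f14 (0.31, adjusted exact p = 0.0223) was lost without CT 01 or CT 07 (adjusted exact p = 0.0668 and 0.0534). The smallest two-sided exact p that 6 and 8 libraries can give is 0.000333, reached by 4 of the ratios.

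Other genes of the CYP4 family were scarce. Of 12 listed, 5 were in the table and 3 were tested. Cyp4f16, a further Cyp4f gene, rose from 1.68 ± 0.390 CPM in CT (SD, n = 6) to 6.93 ± 2.11 in C26 (SD, n = 8), with a log2 fold change of 2.04 (SE 0.20, edgeR adjusted p = 4.58e-09) and no overlap, opposite in sign to Cyp4f13, Cyp4f14 and Cyp4f15. Cyp4b1 and Cyp4f17 did not pass. Cyp4f18, a leukotriene-hydroxylating gene of myeloid cells, had 0 to 4 counts in CT, 2 to 10 in C26 and 2 to 14 in C26-TDCA and was too low to test.

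Most genes of the steps that serve and follow omega-hydroxylation were lower with the tumour as well. For scale, 29.2% of all genes tested were called lower in C26 against CT and 28.9% higher. All 6 genes listed as electron donors or partners of P450 enzymes fell in C26 against CT (median -1.02). Among them were Cyb5a at -1.05 and Cyb5r3 at -1.36, which encode cytochrome b5 and its reductase. Por, the P450 reductase, was at -0.70 with overlapping groups (edgeR adjusted p = 0.0164). In C26-TDCA against CT it was not called (-0.45, edgeR adjusted p = 0.115). All 5 measured genes of the omega-alcohol step fell (median -1.64). Aldh3a2, the fatty aldehyde dehydrogenase, went from 162 ± 22 CPM in CT (SD, n = 6) to 10.1 ± 5.66 in C26 (SD, n = 8), a log2 fold change of -4.02 (SE 0.26, edgeR adjusted p = 2.34e-12). The alcohol dehydrogenases Adh1, Adh7 and Adh4 fell by 1.78, 1.64 and 1.03. Of 20 genes of peroxisomal fatty acid activation, import and oxidation 14 fell, 4 rose and 2 were not called (median -0.54). Those that fell included Ehhadh at -1.84, the bifunctional enzyme, Acaa1b at -4.61, a thiolase, Acot4 at -2.61, a thioesterase of dicarboxylic acids, and Acsl1 at -2.32, an acyl-CoA synthetase.

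Regulators and targets were mixed. In C26 against CT, 29.2% of all genes tested were called lower and 28.9% higher. Ppara, which encodes PPARα, fell from 136 ± 16.5 CPM in CT (SD, n = 6) to 45.4 ± 20.1 in C26 (SD, n = 8), a log2 fold change of -1.59 (SE 0.25, edgeR adjusted p = 6.10e-06). Over the list of lipid-sensing receptors and their cofactors 4 of 13 fell, 2 rose and 7 were not called. The part that fell was close to the share of all genes called lower. It included Nr1i3 at -2.61 and Ppargc1b at -2.20. Ppard rose by 0.34 with overlapping groups, and Rxra at 0.10 was not called. Of 19 other PPARα targets 12 fell, 1 rose and 6 were not called (median -0.41). Fabp1, the liver fatty acid binding protein, was at -2.46, Acot1 at -3.17 and Hadha at -0.62. Of 9 genes of growth hormone signalling, which sets male patterns of liver P450 expression, Ghr, the receptor, fell by 1.51, Jak2 rose by 0.35 and 7 were not called. Of 13 measured genes of eicosanoid metabolism 7 fell and 5 rose, with Ephx1 at -2.98, Ephx2 at -1.81 and Pla2g6 at -1.16 among the former and Ptgs1 at 1.2 among the latter. In C26-TDCA against C26, edgeR called 0 of the 88 tested genes of these lists, against 1.97% of all genes tested. The lists run from the other CYP4 genes to eicosanoid metabolism. DESeq2 called 2 of the 88, and its count over all genes is given below. The unadjusted edgeR p was under 0.05 for 14 of the 88 and for 2335 of all 14785 genes tested, a similar share.

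For 3 members the genes with the most similar profile were sought among 7251 genes with an established symbol and a mean of at least 10 CPM. The 10 members themselves were left out of the search. The measure was the root mean square (RMS) difference of log2 CPM over 22 libraries after centring. For Cyp4f14 these were Cat (catalase of peroxisomes, RMS difference 0.157), Pbld2 (0.195) and Me1 (malic enzyme, 0.235), where the profile of Cyp4f14 itself had an RMS of 1.10. Cat stood at 3181 ± 77.1 CPM in CT (SD, n = 6) and 791 ± 378 in C26 (SD, n = 8). For Cyp4a12a, with an RMS of 1.04, they were Alas2 (0.218), Mup3, a major urinary protein (0.256), and Tm7sf2, a sterol reductase (0.312). For Cyp4a14, with an RMS of 0.932, the nearest genes were Rdh16f2 (0.737), Enho (0.766) and Marcksl1 (0.771), so none of the genes searched followed it closely. Other members and genes under 10 CPM could not be found this way. Cyp4a14 itself had 16 to 234 counts per library, and the part of these low counts in the differences was not tested.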

How the data were processed

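Frozen livers were the source of Trizol-extracted, DNase-treated RNA, per the labels' protocols. The authors deposited raw counts of reads per Ensembl gene, 1 column per mouse, and these were used unchanged. GRCm38 is the build in the submitters' processing notes, which also list featureCounts 2.0.3, HISAT2 2.2.1, Trimmomatic 0.40, bcl2fastq 2.17, FastQC and DESeq2 1.42.0. No source used here gives the annotation release, the strand setting or the handling of multi-mapping reads. Every gene in the table has at least 10 counts in some library. Symbols were taken from GENCODE M21 (15443 matched, 5 did not), which also gave positions, exon lengths and coding sequences.

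Counts were tested with edgeR 4.0.16 in R 4.3.3: filterByExpr (minimum count 10, 14785 genes kept, 663 removed), TMM scaling, 1 model with a mean per group over all 22 libraries, quasi-likelihood F tests and Benjamini-Hochberg adjustment over all genes at 0.05. The script was tested on simulated counts. Standard errors were derived from each log2 fold change and its F statistic, so they and the 95% intervals are approximate. Ratios of members used counts plus 0.5 and exact permutation of libraries. Alternatives included DESeq2 1.42.0, limma 3.58.1, other scalings, no filter, summed reads of near-identical copies and each library left out. Each library is labelled as 1 mouse, and depth limits precision for the members under 10 CPM. All members, the genes most like 3 of them, and up to 4 called genes of each list, by p in C26 against CT, are named, except 1 gene that is not reported here. Members and lists were chosen with earlier results of these data known.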

Additional observations from a re-analysis of the deposited data

Results flagged for a closer look

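In each of 3 groups the 10 genes were searched for a library far from the others (30 searches, of which chance gives about 5% by the threshold used). Only Cyp4f14 in the C26 group met it: C26 02 stood at 168 CPM and the next library at 82.4 CPM, a gap of 0.639 of the whole range of that group, against a critical value of 0.526 for 8 libraries.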

How the results depend on the processing

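In C26 against CT, 8 to 10 members were called, 8 of them lower, under each alternative that kept the members apart and with each library left out. With reads of near-identical copies summed there were 7 features, of which 6 were lower and 1 higher. For C26 against CT the main fit called 8587 of 14785 genes, 29.2% lower and 28.9% higher. Fits with a library left out called 8195 to 8708 genes. In C26-TDCA against C26, 0 members were called under any alternative or with any library left out. Reads of Cyp4a10, Cyp4a31 and Cyp4a32 summed into 1 feature gave -1.11 (C26 against CT), -1.07 (C26-TDCA against CT) and 0.0342 (C26-TDCA against C26), which differ in sign from Cyp4a31 alone against CT and from Cyp4a10 and Cyp4a31 alone under TDCA. Most of that feature is Cyp4a32, so these are no values of Cyp4a10 or Cyp4a31. In C26-TDCA against C26, limma gave 0.00693 for Cyp4a31 and -0.0172 for Cyp4a32. All genes called there numbered 291, but 45 with only the 2 groups fitted, 538 with DESeq2, 468 with limma voomWithQualityWeights, 17 with the length and GC trend removed, and 59 to 594 with a library left out; the cause was not tested.

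With a library left out, the values in C26-TDCA against C26 ranged from -0.15 to 0.14 for Cyp4a31, -0.0261 to 0.118 for Cyp4a32, -0.315 to 0.0924 for Cyp4f14 and -0.13 to 0.0124 for Cyp4v3. The log2 ratios there ranged from -0.0355 to 0.247 for Cyp4a32 over Cyp4a10, -0.23 to 0.0823 for Cyp4f13 over Cyp4f14, -0.0421 to 0.284 for Cyp4f15 over Cyp4f14 and -0.12 to 0.10 for Cyp4v3 over Cyp4f14. In C26-TDCA against CT, Cyp4a32 over Cyp4a10 ranged from -0.203 to 0.00176.

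Upper-quartile scaling gave 3708 genes lower and 4889 higher in C26 against CT, where TMM gave 4321 and 4266. Removing the trend with length and GC gave 4848 and 4016, and 5053 and 3802 in C26-TDCA against CT. No scaling moved the median of all genes by over 0.1.

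The deviations of libraries with the same replicate number correlated from -0.08 to 0.05 in C26 against CT (0 of 6 pairs over 0.1), from -0.20 to 0.34 in C26-TDCA against C26 (5 of 8 pairs) and from -0.01 to 0.13 in C26-TDCA against CT (1 of 6 pairs). Libraries correlated best with their own number in 0, 2 and 3 pairs. Not every pair exceeded 0.1 in any comparison, so the numbers were not taken to pair mice. With the replicate block, 8 members were called lower in C26 against CT, Cyp4a14 was not called (0.88, edgeR adjusted p = 0.140) and Cyp4a31 under TDCA was 0.0529. As a paired sign-flip test, the ratios gave 0 calls in place of 11. With 6 pairs against CT the smallest two-sided exact p is 0.0312, which hardly allows a call after adjustment over 21 tests, so this says nothing about stability. In those pairs Cyp4a32 over Cyp4a10 was 0.000165 in C26 and 0.0185 in C26-TDCA against CT.

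Cyp4a14, Cyp4a31 and Cyp4a12b rested on as few as 16, 20 and 24 counts in a library, so these values are less precise than those of the other members.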
